A study of Homo sapiens with 18 samples.

Results

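Cholesterol and fatty acid synthesis genes were followed through the graphene oxide treatment of cell lines labelled T cells and monocytes. The genes were taken from a list of 31, of which 18 encode enzymes of the sterol path in order, from acetyl-CoA to cholesterol. The others were 5 genes of the sterol sensor, 1 sterol carrier, 3 targets of the liver X receptor (LXR) and 4 genes of fatty acid synthesis. Of the 20041 genes named on the array, 30 were listed genes with a tested probe. FDFT1, the squalene synthase, was not analysed here.

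Cholesterol synthesis starts in the cytosol, where acetyl-CoA is built up to mevalonate and then to isoprene units, and ends in the endoplasmic reticulum, where squalene is closed to lanosterol and trimmed to cholesterol. When sterol in the endoplasmic reticulum membrane is low, the escort protein SCAP carries the sterol regulatory element-binding proteins (SREBPs) to the Golgi, where they are cut and freed to switch on genes of sterol and fatty acid synthesis. INSIG proteins hold SCAP back when sterol is plentiful, and oxidised sterols then activate LXR, which switches on the pumps that send cholesterol out of the cell. Monocytes and macrophages are known for strong LXR-driven efflux, and dividing T cells for active SREBP-driven synthesis.

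Total RNA was measured on 18 single-colour bead arrays, 3 for each of 6 groups. Jurkat, a human T-cell leukaemia line, and THP1, a human monocytic leukaemia line, were left untreated as controls or were exposed for 24 h to 50 µg/ml of graphene oxide (GO), a sheet of oxidised carbon, or of GONH2, the same material carrying amino groups attached through a triethyleneglycol diamine. Each cell type was modelled by 1 leukaemia line, without primary cells. The labels called the arrays biological replicates without saying whether separate cultures were used, so the p-values measure only the spread between these arrays.

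Before the results, 2 limits of the labels apply. In the lists of group means that accompany the data, the means named GO in monocytes equalled the arrays labelled GONH2 within 0.005 log2 units for 100% of 1996 listed probes. They equalled the arrays labelled GO for 0%, whereas in Jurkat cells the means named GO equalled the arrays labelled GO for 100%. In each line the probes compared were fewer than the transcripts the study reports as altered by GO. The treated THP1 groups are therefore called labelled GO and labelled GONH2 throughout, and no direction between the materials is settled in that line. The arrays labelled Jurkat also held myeloid transcripts: 9 of 10 myeloid markers were detected on all 3 control arrays, and of 10 T-cell markers 3 were (CD3D, CD247 and LAT), while CD3E, CD3G, CD5, CD28 and ZAP70 were detected on none. The THP1 controls showed 10 of 10 myeloid markers. The name Jurkat therefore follows the labels, and whether these arrays hold T cells is not settled here. No difference between the lines is read as one between T cells and monocytes.

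Values are log2 normalised signals of 1 probe per gene, the brightest over all arrays, and they are compared between groups and never between genes. A gene was called changed where limma's moderated test over 19455 probes gave p under 0.001 and a Benjamini-Hochberg adjusted p under 0.05, and each difference is a log2 fold change ± its standard error with 3 arrays in each group. Between 15761 and 17809 probes were detected on an array, and arrays of 1 group correlated at 0.987 or above. Of the 30 genes, 27 were detected on all 18 arrays. SREBF2 was detected on 12, and STARD4 and ABCG1 on 16. The arrays read shares of the RNA of a whole culture, so a smaller share of cells carrying a transcript and less of it per cell cannot be told apart.

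GO raised 12 of the 30 genes in Jurkat cells and lowered none, whereas GONH2 changed none of them at the threshold. The 12 were HMGCS1, MVD, CYP51A1, MSMO1, HSD17B7 and DHCR7 of the sterol path, SCAP and INSIG1 of the sensor, the LXR target MYLIP, and the fatty acid genes FADS1, SCD and FASN. Over all tested probes 25.1% were called after GO, and 12.8% were called higher, so a large share of the transcriptome changed in the same comparison. The median change of the 30 genes was 0.42, against 0.06 over all tested probes, and 27 of 30 had a higher mean after GO (21 of 30 when arrays were scaled to the median of all probes instead). The GO arrays did not overlap the controls for 23 of 30 genes, beside 56.6% of all probes. After GONH2 the median was 0.01, and limma called 0 of 30 genes, as did the random variance test, where 0.812% of all probes were called (0.524% higher and 0.288% lower). Before adjustment, 4 of the 30 passed p under 0.05 upward and 1 downward after GONH2, and 8 of 30 did not overlap the controls, beside 26% of all probes.

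In THP1 cells the arrays labelled GONH2 showed 9 genes raised and none lowered, with 19.9% of all probes called and 9.89% called higher. These were HMGCS1, MVK, MVD, TM7SF2, HSD17B7 and DHCR7 of the sterol path, SCAP, and the fatty acid genes FADS2 and FASN. The median of the 30 changes was 0.47, against 0.05 over all probes, and 25 of 30 were higher (18 of 30 after median scaling of all probes). The treated arrays did not overlap the controls for 24 of 30, beside 53.3% of all probes. The arrays labelled GO showed 2 genes raised, ABCA1 and MYLIP, and 2 lowered, LSS and FASN, where 7.93% of all probes were called (4.04% higher and 3.89% lower). There the median was −0.01, against 0.00 over all probes, and 16 of 30 did not overlap the controls, beside 41.6%.

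Markers of both cell types changed in the same comparisons. After GO in Jurkat cells 6 of 10 myeloid markers were called, with ELANE, PRTN3 and CSF1R higher (between 0.73 and 0.89) and LYZ, FCER1G and TYROBP lower (between −1.37 and −0.68). Of 6 T-cell markers with a tested probe CD3D was the 1 called, lower by a difference of −2.45 ± 0.25, and CD3E, CD3G, CD5 and CD28 had no tested probe. The myeloid markers summed to between 14.81 and 14.90 on the log2 scale in Jurkat controls, 15.42 and 15.56 after GO and 14.59 and 14.63 after GONH2, where CEBPA and SPI1 were called lower. In THP1 cells the sums were 15.53 to 15.72 in controls, 14.80 to 14.89 with the label GO, where 6 were called lower, and 15.80 to 15.86 with the label GONH2, where SPI1 was called higher and FCER1G and TYROBP lower. The summed T-cell markers ran from 9.08 to 9.27 in Jurkat controls, 8.74 to 8.94 after GO and 8.88 to 9.00 after GONH2, and from 7.76 to 8.21 over all THP1 arrays. The part of these markers in the results on sterol and fatty acid genes was not tested.

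**Figure D1:**
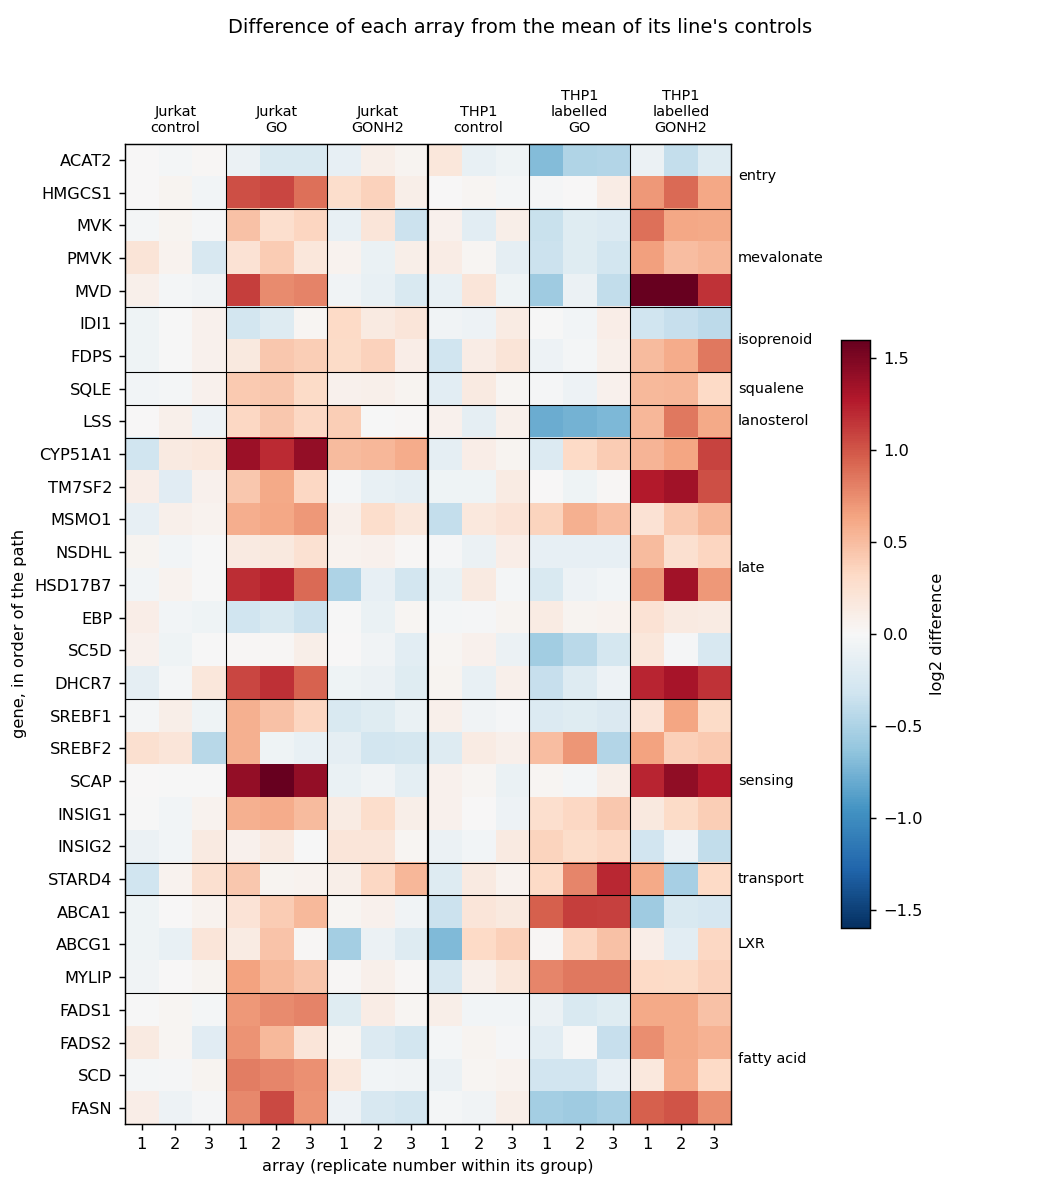
Each cell of the map is 1 array (columns, grouped by cell line and treatment, with replicate numbers below) and 1 gene (rows, in the order of the path with the step named at the right), coloured by its log2 difference from the mean of the controls of the same line. The Jurkat GO and THP1 labelled GONH2 columns are mostly red, with SCAP at a mean difference of 1.47 and 1.30, and ABCA1 and MYLIP are reddest on the THP1 arrays labelled GO.

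The number of genes called depended on the scaling and on single arrays. Median scaling over all probes moved the median tested probe from 0.06 to −0.13 after GO in Jurkat cells and from 0.05 to −0.19 on the THP1 arrays labelled GONH2. The calls then fell to 3 genes in Jurkat cells (CYP51A1 and SCAP higher, ACAT2 lower) and 4 in THP1 cells (MVD, TM7SF2, DHCR7 and SCAP). Of all probes 19.1% were then called in Jurkat cells and 19.8% in THP1 cells. Those called higher fell to 3.01% and 2.36%, so the whole array shifted with the scaling. On the THP1 arrays labelled GO that scaling moved the median tested probe from 0.00 to −0.23. It gave 0 genes higher and 3 lower (ACAT2, LSS and FASN), beside 9.81% of all probes called and 1.21% called higher. ABCA1 was then at 0.73 (adjusted p = 0.0165) and MYLIP at 0.49 (adjusted p = 0.13). After GO in Jurkat cells, 9 of the 12 calls were kept whichever array was left out, those other than MSMO1, INSIG1 and MYLIP. Leaving out THP1 control replicate 2, control replicate 3 or labelled GONH2 replicate 1 left 5 of the 9 calls in THP1 cells. Leaving out any labelled GO replicate left 2 of the 4 calls of that comparison, LSS and ABCA1, and without replicate 1 another gene was called in addition.

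The promoters of the genes called both after GO in Jurkat cells and on the THP1 arrays labelled GONH2 are shown because these comparisons with control had the most calls in each line. SREBPs bind weakly on their own and are known to work beside the factors NF-Y and Sp1. Of the 6 genes, 5 matched a promoter window in RefSeq (GRCh38.p14), and the 250 bases before the start site are given for HMGCS1 (chr5:43313413-43313662, minus strand), MVD (chr16:88663092-88663341, minus strand), HSD17B7 (chr1:162790452-162790701, plus strand), DHCR7 (chr11:71448394-71448643, minus strand) and SCAP (chr3:47475942-47476191, minus strand), 5′ to 3′ on the gene's strand. Capitals mark CCAAT, the NF-Y motif, on either strand (ATTGG on the other); no match to CACNCCAC, a core of the SREBP motif, was found in these windows, and SCAP had neither.
HMGCS1: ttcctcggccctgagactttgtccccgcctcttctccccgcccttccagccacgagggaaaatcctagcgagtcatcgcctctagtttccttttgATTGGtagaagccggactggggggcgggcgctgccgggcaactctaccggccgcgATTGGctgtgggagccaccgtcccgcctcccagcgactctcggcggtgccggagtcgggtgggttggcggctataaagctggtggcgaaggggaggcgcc
MVD: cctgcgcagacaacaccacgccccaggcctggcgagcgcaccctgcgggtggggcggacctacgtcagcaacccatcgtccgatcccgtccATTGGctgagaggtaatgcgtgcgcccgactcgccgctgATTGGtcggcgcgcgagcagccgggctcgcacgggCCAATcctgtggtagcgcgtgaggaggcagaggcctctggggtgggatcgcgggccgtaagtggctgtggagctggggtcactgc
HSD17B7: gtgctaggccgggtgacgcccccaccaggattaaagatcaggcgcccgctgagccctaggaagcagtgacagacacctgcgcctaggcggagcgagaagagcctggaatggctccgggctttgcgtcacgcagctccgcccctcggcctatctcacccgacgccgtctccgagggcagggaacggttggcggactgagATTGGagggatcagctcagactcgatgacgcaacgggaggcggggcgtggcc
DHCR7: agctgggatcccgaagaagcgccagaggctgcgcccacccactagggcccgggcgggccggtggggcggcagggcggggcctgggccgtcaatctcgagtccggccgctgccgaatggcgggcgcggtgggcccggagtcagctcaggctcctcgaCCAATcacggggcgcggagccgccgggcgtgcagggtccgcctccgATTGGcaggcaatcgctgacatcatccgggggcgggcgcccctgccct
SCAP: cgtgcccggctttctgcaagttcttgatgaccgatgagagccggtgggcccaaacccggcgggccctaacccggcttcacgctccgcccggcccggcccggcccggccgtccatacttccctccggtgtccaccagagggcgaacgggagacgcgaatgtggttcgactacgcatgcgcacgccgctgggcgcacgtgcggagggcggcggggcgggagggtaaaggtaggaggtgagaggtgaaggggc

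MVD held 3 CCAAT matches, HMGCS1 and DHCR7 2 each and HSD17B7 1. Taking the first window listed for each gene, on both strands, 17 of 26 genes of the list with a window held CCAAT (65.4%), against 33% of all 27305 genes in the table, which include noncoding genes. GGGCGG, the Sp1 motif, was in 24 of 26 (92.3%) against 42.3%. CACNCCAC was in 4 of 26, those of SREBF2, INSIG1, ABCA1 and SCD (15.4% against 4.72%), and the longer TCACNCCAC, which contains it, in 1. CACGTG, the E-box, was in 4 of 26 (15.4% against 6.49%), SCAP among them. Among genes called after GO in Jurkat cells CCAAT was in 8 of 11 and among the others in 9 of 15. A match is a run of letters in a window and no measure of binding.

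At the entry of the path, HMGCS1, which makes HMG-CoA, rose in Jurkat cells after GO. Its log2 signal read 12.35, 12.39 and 12.30 in the control arrays, 13.38, 13.42 and 13.23 after GO and 12.62, 12.71 and 12.44 after GONH2. All GO arrays lay above all others of the line, and the difference from control was 1.00 ± 0.10, adjusted p = 0.00016, a 2-fold rise. The difference after GONH2 was 0.25 ± 0.10, adjusted p = 0.245, with the GONH2 arrays above the controls. Median scaling over all probes put HMGCS1 at 0.29 after GO and at 0.20 on the THP1 arrays labelled GONH2, neither called. On the THP1 arrays it read 11.91, 11.94 and 11.87 in the control arrays, 11.88, 11.90 and 12.02 on those labelled GO and 12.60, 12.80 and 12.52 on those labelled GONH2. Only the arrays labelled GONH2 stood apart (0.74 ± 0.13, adjusted p = 0.00203), and the call was kept in 3 of 6 fits that left out 1 array, being lost without control replicate 2, control replicate 3 or labelled GONH2 replicate 1. ACAT2, which joins a pair of acetyl-CoA molecules just before HMGCS1, was called in neither line. Its difference was −0.19 ± 0.10 after GO in Jurkat cells and −0.55 ± 0.12 on the THP1 arrays labelled GO, where all treated arrays lay below the controls (adjusted p = 0.0201).

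The next enzymes, the kinases MVK and PMVK and the decarboxylase MVD, turn mevalonate into the isoprene unit. MVD showed the largest rise of the sterol path in the THP1 comparison. Its signal was 7.95, 8.27 and 8.00 in the control arrays, 7.51, 7.97 and 7.67 on those labelled GO and 9.67, 9.79 and 9.23 on those labelled GONH2. The labelled GONH2 arrays stood clear of the others, at 2.82-fold the control (1.49 ± 0.17, adjusted p = 0.000408), and those labelled GO overlapped the controls. In Jurkat cells MVD read 8.01, 7.90 and 7.87 in the control arrays, 9.03, 8.68 and 8.72 after GO and 7.87, 7.80 and 7.68 after GONH2. It rose after GO (0.89 ± 0.12, adjusted p = 0.000776) and overlapped the controls after GONH2 (−0.14 ± 0.09). MVK read 6.58, 6.34 and 6.61 in the control arrays, 6.16, 6.31 and 6.29 on those labelled GO and 7.39, 7.13 and 7.11 on those labelled GONH2 in THP1 cells, a rise on the arrays labelled GONH2 (0.70 ± 0.14, adjusted p = 0.00417) that was kept in 0 of 6 fits leaving out 1 array. In Jurkat cells MVK was 6.36, 6.43 and 6.36 in controls and 6.85, 6.65 and 6.73 after GO, a separation that missed the threshold (0.36 ± 0.10, adjusted p = 0.018). PMVK was not called against control in either line, with 0.27 ± 0.14 after GO in Jurkat cells and 0.56 ± 0.13 on the THP1 arrays labelled GONH2.

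None of the enzymes from the isoprene unit to squalene epoxide was called against control in either line. IDI1, the isomerase of the isoprene unit, differed by −0.15 ± 0.12 after GO in Jurkat cells and by −0.37 ± 0.13 on the THP1 arrays labelled GONH2, where all treated arrays lay below the controls without a call (adjusted p = 0.0416). FDPS, which joins isoprene units to farnesyl diphosphate, differed by 0.33 ± 0.11 in the first comparison and 0.65 ± 0.17 in the second (adjusted p = 0.0146). SQLE, the epoxidase of squalene, differed by 0.39 ± 0.10 and 0.46 ± 0.14, with no overlap of arrays and no call in either.

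LSS, which closes the squalene chain into lanosterol, was the only sterol enzyme called lower on the THP1 arrays labelled GO. It read 10.14, 9.93 and 10.16 in the control arrays, 9.28, 9.32 and 9.36 on those labelled GO and 10.60, 10.92 and 10.69 on those labelled GONH2. The arrays labelled GO were the lowest and those labelled GONH2 the highest of the line, without overlap. Against control the difference was −0.76 ± 0.11, adjusted p = 0.00417, and the rise on arrays labelled GONH2 missed the threshold (0.66 ± 0.14, adjusted p = 0.00526). The other probes of LSS gave −0.42 ± 0.18 and −0.19 ± 0.10 with the label GO, neither called, and averaging the probes ended the call of the fall. In Jurkat cells the brightest probe differed by 0.37 ± 0.10 after GO and 0.14 ± 0.13 after GONH2. Of 17 measured sterol enzymes 12 had lower means on the THP1 arrays labelled GO. Before adjustment 5 passed p under 0.05 downward and 1 upward there.

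Of 8 measured enzymes that trim lanosterol to cholesterol, 4 rose in Jurkat cells after GO and 3 on the THP1 arrays labelled GONH2, beside 12.8% and 9.89% of all probes called higher. CYP51A1, the cytochrome P450 that removes the methyl group at carbon 14 of lanosterol, showed the largest rise of the sterol path in Jurkat cells. It read 7.77, 8.23 and 8.26 in the control arrays, 9.46, 9.28 and 9.49 after GO and 8.59, 8.62 and 8.68 after GONH2. The GO arrays were the highest (2.5-fold, 1.32 ± 0.15, adjusted p = 0.000325) and the GONH2 arrays lay between them and the controls without a call (0.54 ± 0.14, adjusted p = 0.117). On THP1 arrays it read 7.95, 8.21 and 8.15 in the control arrays, 7.89, 8.42 and 8.50 on those labelled GO and 8.65, 8.74 and 9.18 on those labelled GONH2, and the treated arrays labelled GONH2 lay above the controls without reaching p under 0.001 (0.75 ± 0.17, adjusted p = 0.00644).

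TM7SF2, which reduces the double bond left by CYP51A1, was called in THP1 cells alone. In THP1 cells it read 8.63, 8.63 and 8.83 in the control arrays, 8.70, 8.63 and 8.71 on those labelled GO and 9.97, 10.04 and 9.73 on those labelled GONH2, a 2.32-fold rise on arrays labelled GONH2 (1.21 ± 0.14, adjusted p = 0.000391) while the arrays labelled GO overlapped the controls. In Jurkat cells it was 9.12, 8.84 and 9.09 in controls and 9.45, 9.62 and 9.35 after GO, which was not called (0.46 ± 0.12, adjusted p = 0.0169). MSMO1, which oxidises the methyl groups at carbon 4, read 11.01, 11.22 and 11.19 in the control arrays, 11.72, 11.76 and 11.83 after GO and 11.22, 11.42 and 11.32 after GONH2 in Jurkat cells. All GO arrays lay above the others (0.63 ± 0.10, adjusted p = 0.00163), and the call was kept in 1 of 6 fits that left out 1 array, the one without GO replicate 1. On THP1 arrays its difference was 0.48 ± 0.17 with the label GO and 0.39 ± 0.18 with the label GONH2, neither called. NSDHL, its partner in removing these groups, differed by 0.18 ± 0.09 after GO in Jurkat cells and 0.37 ± 0.13 on THP1 arrays labelled GONH2, with no call.

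HSD17B7, the reductase that completes this removal, rose in both lines. In Jurkat cells it read 11.44, 11.54 and 11.47 in the control arrays, 12.67, 12.72 and 12.39 after GO and 10.98, 11.36 and 11.19 after GONH2. The GO arrays were 2.16-fold the control (1.11 ± 0.12, adjusted p = 0.000203), and the GONH2 arrays lay below the controls without a call (−0.31 ± 0.11). In THP1 cells it read 11.26, 11.51 and 11.34 in the control arrays, 11.12, 11.29 and 11.32 on those labelled GO and 12.08, 12.72 and 12.06 on those labelled GONH2. Labelled GONH2 replicate 2 was the highest of these, the group lay above the controls (0.92 ± 0.19, adjusted p = 0.00446), and the call was kept in 0 of 6 fits that left out 1 array. RefSeq lists 2 pseudogenes of HSD17B7, so its signal may include their transcripts. EBP, a sterol isomerase, and SC5D, a sterol desaturase, were not called. EBP differed by −0.30 ± 0.10 after GO in Jurkat cells, with all GO arrays below the controls (adjusted p = 0.0365), and SC5D by 0.04 ± 0.09. On the THP1 arrays labelled GO SC5D differed by −0.42, with all treated arrays below the controls (adjusted p = 0.0354).

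DHCR7, with CCAAT once on each strand of its promoter window, makes cholesterol from 7-dehydrocholesterol in the last step. It read 9.93, 10.05 and 10.26 in the control arrays, 11.15, 11.24 and 11.02 after GO and 10.00, 9.99 and 9.89 after GONH2 in Jurkat cells. GO arrays lay clear above all others (2.08-fold, 1.06 ± 0.12, adjusted p = 0.000313). In THP1 cells it read 9.95, 9.79 and 9.99 in the control arrays, 9.55, 9.71 and 9.83 on those labelled GO and 11.13, 11.23 and 11.07 on those labelled GONH2, and the arrays labelled GONH2 stood 2.35-fold above the control (1.23 ± 0.13, adjusted p = 0.000293) while those labelled GO overlapped it (−0.22 ± 0.12). Along the whole path, 6 of 17 measured enzymes were called after GO in Jurkat cells and 6 of 17 on the THP1 arrays labelled GONH2, with 4 of these (HMGCS1, MVD, HSD17B7 and DHCR7) in common, beside 25.1% and 19.9% of all probes called.

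**Figure D2:**
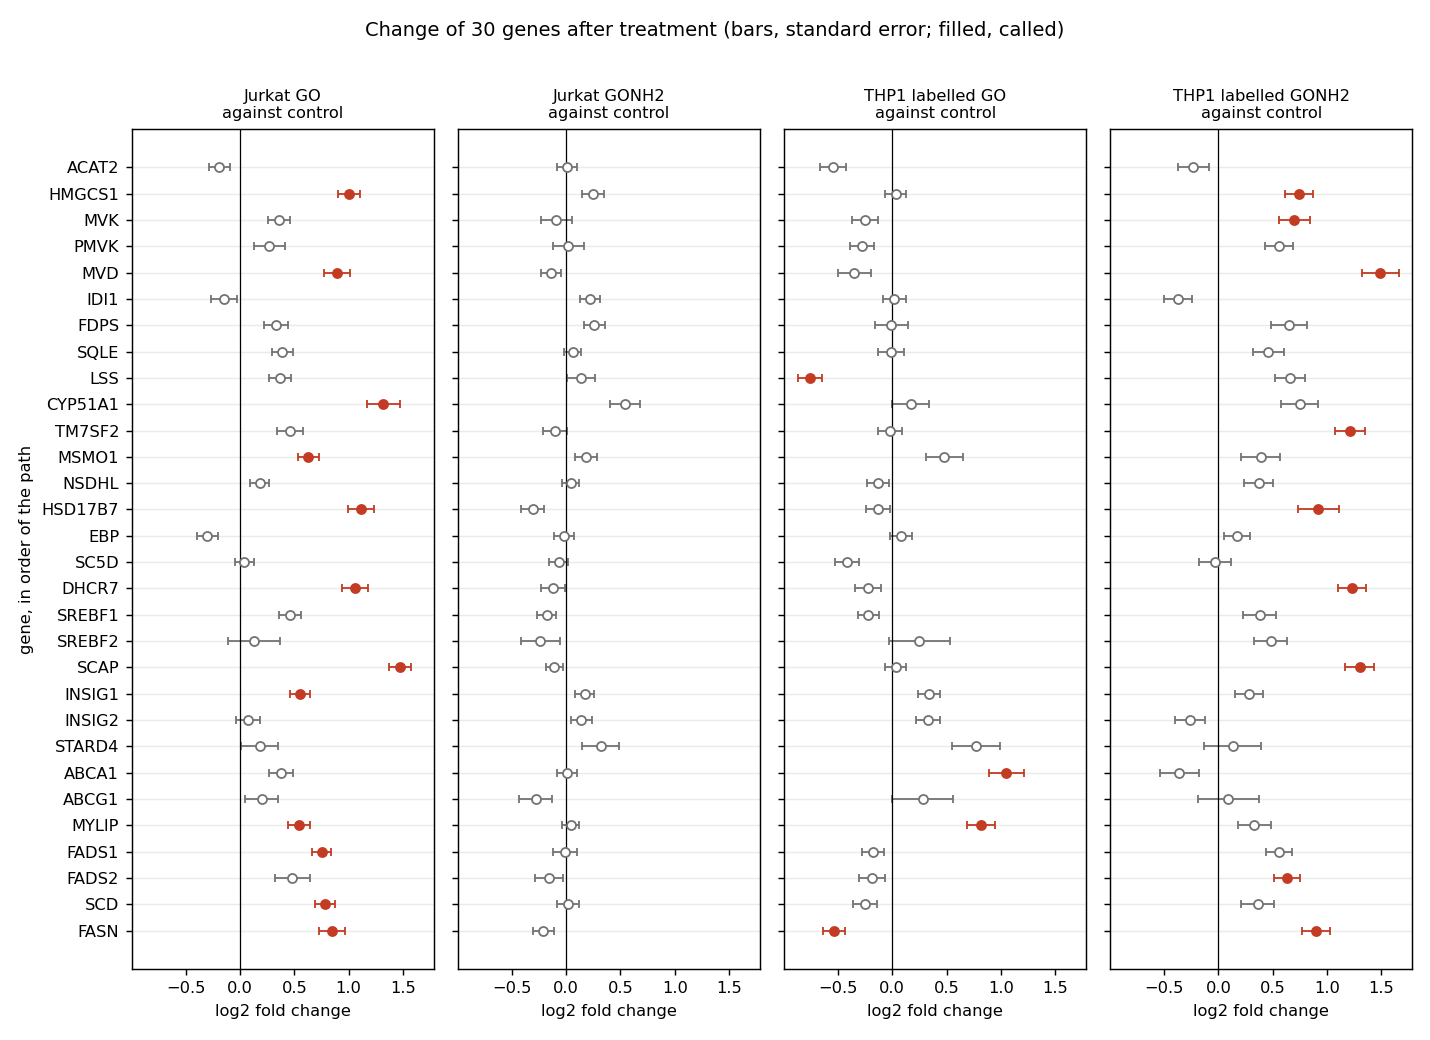
Points give the log2 fold change of each gene (rows, in the order of the path) against the controls of its line, with bars of 1 standard error from 3 arrays in each group, in 4 panels for the 4 comparisons. Filled red points passed the threshold: 12 after GO in Jurkat cells, 0 after GONH2, 4 on the THP1 arrays labelled GO and 9 on those labelled GONH2.

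SCAP, the escort of the SREBPs and the gene without CCAAT among the promoters shown, had the largest change of all 30 genes after GO in Jurkat cells. It read 10.52, 10.51 and 10.51 in the control arrays, 11.92, 12.10 and 11.93 after GO and 10.41, 10.46 and 10.36 after GONH2. The control and GONH2 arrays lay close together and the GO arrays far above them, a 2.76-fold rise (1.47 ± 0.10, adjusted p = 2.93e-05). In THP1 cells it read 10.77, 10.73 and 10.60 in the control arrays, 10.73, 10.67 and 10.79 on those labelled GO and 11.91, 12.12 and 11.97 on those labelled GONH2. Again a single treated group stood apart, the one labelled GONH2 (2.46-fold, 1.30 ± 0.13, adjusted p = 0.000263), and the arrays labelled GO differed from control by 0.03 ± 0.10. The calls of SCAP were kept with any 1 array left out and under all other settings tried on the labels as given.

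INSIG1, an SREBP target that holds SCAP in the endoplasmic reticulum, read 11.91, 11.87 and 11.98 in the control arrays, 12.48, 12.51 and 12.42 after GO and 12.05, 12.21 and 12.02 after GONH2 in Jurkat cells. GO arrays were above the others (0.55 ± 0.09, adjusted p = 0.00189), the call was kept in 0 of 6 fits leaving out 1 array, and median scaling over all probes turned the difference to −0.01. In THP1 cells both treated groups lay above the controls without a call, at 0.34 ± 0.10 with the label GO and 0.28 ± 0.13 with the label GONH2. INSIG2, the second such protein, differed by 0.07 ± 0.11 after GO in Jurkat cells. SREBF1, which encodes SREBP-1 and favours fatty acid genes, differed by 0.46 ± 0.10, adjusted p = 0.00833 in that comparison, short of p under 0.001. SREBF2, which encodes SREBP-2 and favours sterol genes, was dim and variable, with 0.13 ± 0.24 after GO and detection on 1 of 3 THP1 control arrays. STARD4, a soluble carrier of cholesterol, was also dim and differed by 0.77 ± 0.22 on the THP1 arrays labelled GO (adjusted p = 0.0426).

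Of 3 LXR targets, 2 rose on the THP1 arrays labelled GO, beside 7.93% of all probes called and 4.04% called higher. After GO in Jurkat cells 1 rose, beside 25.1% called and 12.8% called higher. None was called in the other comparisons with control. ABCA1, a pump that loads cholesterol onto apolipoprotein, rose only on the THP1 arrays labelled GO among the 4 comparisons with control. It read 7.48, 8.01 and 7.98 in the control arrays, 8.78, 8.93 and 8.92 on those labelled GO and 7.25, 7.58 and 7.55 on those labelled GONH2. The arrays labelled GO were all above the controls (2.08-fold, 1.05 ± 0.16, adjusted p = 0.00505), and those labelled GONH2 overlapped them (−0.36 ± 0.18). In Jurkat cells it read 7.37, 7.44 and 7.50 in the control arrays, 7.66, 7.84 and 7.96 after GO and 7.46, 7.50 and 7.38 after GONH2, with GO arrays above the others and no call (0.38 ± 0.11, adjusted p = 0.0223).

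MYLIP, an LXR-driven ubiquitin ligase that sends lipoprotein receptors to degradation, was called higher in both lines under the label GO. In THP1 cells it read 10.47, 10.80 and 10.90 in the control arrays, 11.51, 11.57 and 11.57 on those labelled GO and 11.05, 11.04 and 11.10 on those labelled GONH2. The arrays labelled GO were the highest (0.82 ± 0.13, adjusted p = 0.00644), and the call was lost without any 1 of the 3 of them. Those labelled GONH2 also lay above the controls, by 0.33, without a call (adjusted p = 0.0948). In Jurkat cells it read 10.91, 10.97 and 11.00 in the control arrays, 11.60, 11.48 and 11.41 after GO and 10.98, 11.04 and 10.97 after GONH2, a rise after GO (0.54 ± 0.10, adjusted p = 0.00294) that was kept in 0 of 6 fits leaving out 1 array. Median scaling over all probes put MYLIP at 0.08 after GO in Jurkat cells, without a call. ABCG1, a second efflux pump, was dim and differed by 0.28 ± 0.28 on the THP1 arrays labelled GO and 0.20 ± 0.15 after GO in Jurkat cells. Other LXR targets of a wider list given below were not called on the THP1 arrays labelled GO. LPCAT3 lay below the controls there, at 8.19, 7.81 and 7.99 against 8.49, 8.61 and 8.73. PLTP lay above them, at 8.79, 8.65 and 8.56 against 8.22, 8.17 and 8.53.

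**Figure D3:**
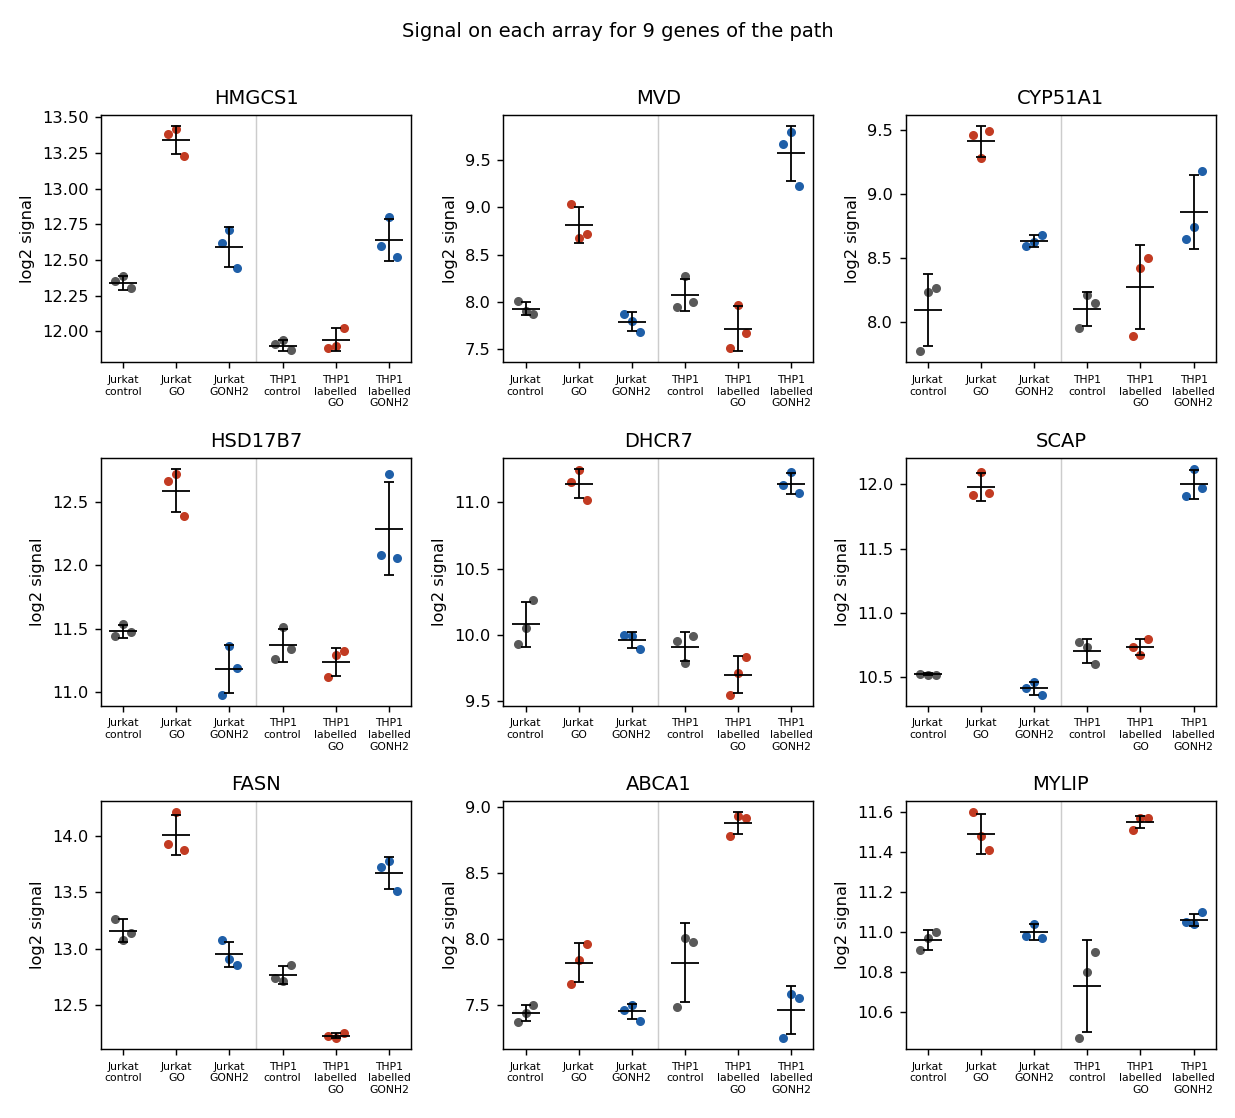
Dots are the log2 signals of single arrays for 9 genes in the 6 groups (grey, control; red, labelled GO; blue, labelled GONH2), and horizontal marks with bars are the mean ± SD of 3 arrays; each panel has its own vertical range, which does not start at 0. For HMGCS1, MVD, CYP51A1, HSD17B7, DHCR7, SCAP and FASN the Jurkat GO and THP1 labelled GONH2 groups are the highest of their lines, whereas ABCA1 and MYLIP in THP1 cells are highest on the arrays labelled GO.

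All 4 fatty acid genes had higher means after GO in Jurkat cells, and 3 were called. Median scaling over all probes ended these 3 calls, with FASN at 0.12, SCD at 0.09 and FADS1 at 0.21. On the THP1 arrays that scaling put FASN at 0.37 with the label GONH2, without a call, and at −0.89 with the label GO. FASN, the synthase of palmitate, read 13.26, 13.08 and 13.14 in the control arrays, 13.93, 14.21 and 13.88 after GO and 13.08, 12.91 and 12.86 after GONH2. The GO arrays lay above all others (1.8-fold, 0.85 ± 0.12, adjusted p = 0.00094). In THP1 cells it read 12.74, 12.71 and 12.86 in the control arrays, 12.23, 12.21 and 12.25 on those labelled GO and 13.73, 13.78 and 13.51 on those labelled GONH2. Here the labelled groups went opposite ways from control, up with the label GONH2 (0.90 ± 0.13, adjusted p = 0.00089) and down with the label GO (−0.54 ± 0.10, adjusted p = 0.00937). The call of the fall was kept in 0 of 6 fits that left out 1 array.

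SCD, which puts the first double bond into saturated fatty acids, read 13.39, 13.40 and 13.46 in the control arrays, 14.24, 14.20 and 14.14 after GO and 13.58, 13.37 and 13.35 after GONH2 in Jurkat cells. The rise after GO was 1.71-fold (0.78 ± 0.09, adjusted p = 0.000349), and in THP1 cells it was not called, with 0.36 ± 0.15 on arrays labelled GONH2. FADS1, the delta-5 desaturase of long unsaturated chains, read 11.40, 11.43 and 11.37 in the control arrays, 12.10, 12.16 and 12.20 after GO and 11.20, 11.52 and 11.44 after GONH2 in Jurkat cells. It rose after GO (1.68-fold, 0.75 ± 0.09, adjusted p = 4e-04) and differed by 0.56 ± 0.12, adjusted p = 0.00633 on THP1 arrays labelled GONH2, short of the threshold. FADS2, the delta-6 desaturase, was called in THP1 cells alone, where it read 7.83, 7.91 and 7.84 in the control arrays, 7.68, 7.85 and 7.49 on those labelled GO and 8.61, 8.46 and 8.41 on those labelled GONH2. The rise on arrays labelled GONH2 was 0.63 ± 0.12, adjusted p = 0.00344, kept in 0 of 6 fits leaving out 1 array, and in Jurkat cells the difference after GO was 0.48 ± 0.16, adjusted p = 0.0359.

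The aminated and plain material were also compared directly in each line. In Jurkat cells 10 of 30 genes were lower after GONH2 than after GO and none higher, where 24.1% of all probes were called and 12.4% called lower. The arrays did not overlap for 25 of 30 genes, beside 55.9% of all probes. The genes called were HMGCS1, MVD, CYP51A1, HSD17B7, DHCR7, SREBF1, SCAP, FADS1, SCD and FASN. SCAP was 2.98-fold lower (−1.57 ± 0.11, adjusted p = 2.2e-05) and HSD17B7 2.67-fold lower (−1.41 ± 0.14, adjusted p = 0.000127). SREBF1, not called against control, was lower after GONH2 (difference −0.64 ± 0.11, adjusted p = 0.00197). Its arrays read 9.39, 9.30 and 9.17 after GO and 8.58, 8.64 and 8.72 after GONH2, without overlap, and the call was kept in 1 of 6 fits leaving out 1 array, the one without GO replicate 3, and was lost when the probes of the gene were averaged. Median scaling over all probes left 3 of the 10 calls, HSD17B7, DHCR7 and SCAP, beside 16.9% of all probes called. This comparison shares the GO arrays with that of GO against control, so it is not independent of it.

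In THP1 cells 13 genes were higher on the arrays labelled GONH2 than on those labelled GO and 1 lower, with 28% of all probes called and 14.7% called higher. The labelled groups did not overlap for 24 of 30 genes, beside 59.7% of all probes. The steps from mevalonate to the isoprene unit rose together, with MVK at 0.95 ± 0.13, PMVK at 0.83 ± 0.11 (adjusted p = 0.000493) and MVD at 1.85 ± 0.18, 3.6-fold higher. PMVK read 8.40, 8.54 and 8.45 with the label GO and 9.39, 9.23 and 9.28 with the label GONH2, without overlap. LSS differed by 1.42 ± 0.12, adjusted p = 9.57e-05, DHCR7 by 1.45 ± 0.12 and FASN by 1.44 ± 0.12. HMGCS1, FDPS, TM7SF2, HSD17B7, SCAP, FADS1 and FADS2 were the others called higher, between 0.66 for FDPS and 1.27 for SCAP. Of the 14 calls 9 were kept whichever array was left out. Of 6 such fits, the call of FDPS was kept in 0, HMGCS1 in 2, HSD17B7 in 3, FADS2 in 4 and FADS1 in 5. The gene lower with the label GONH2 was ABCA1 (difference −1.41 ± 0.13, adjusted p = 0.000111). Exchanging the labels of the treated THP1 arrays turns every one of these directions, by construction.

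The sizes of the changes after GO in Jurkat cells and on the THP1 arrays labelled GONH2, which share no array, are set side by side in the scatter of the lines. In all, 6 genes were called in both, each higher: HMGCS1, MVD, HSD17B7, DHCR7, SCAP and FASN. That is 50% of the 12 and 66.7% of the 9, beside 57.2% and 72.3% for all called probes, so both shares lay below those of the whole array. Over the 30 genes the changes correlated at r = 0.729, given as a description across genes, which are not independent replicates, and over all 19455 probes at 0.854.

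**Figure D4:**
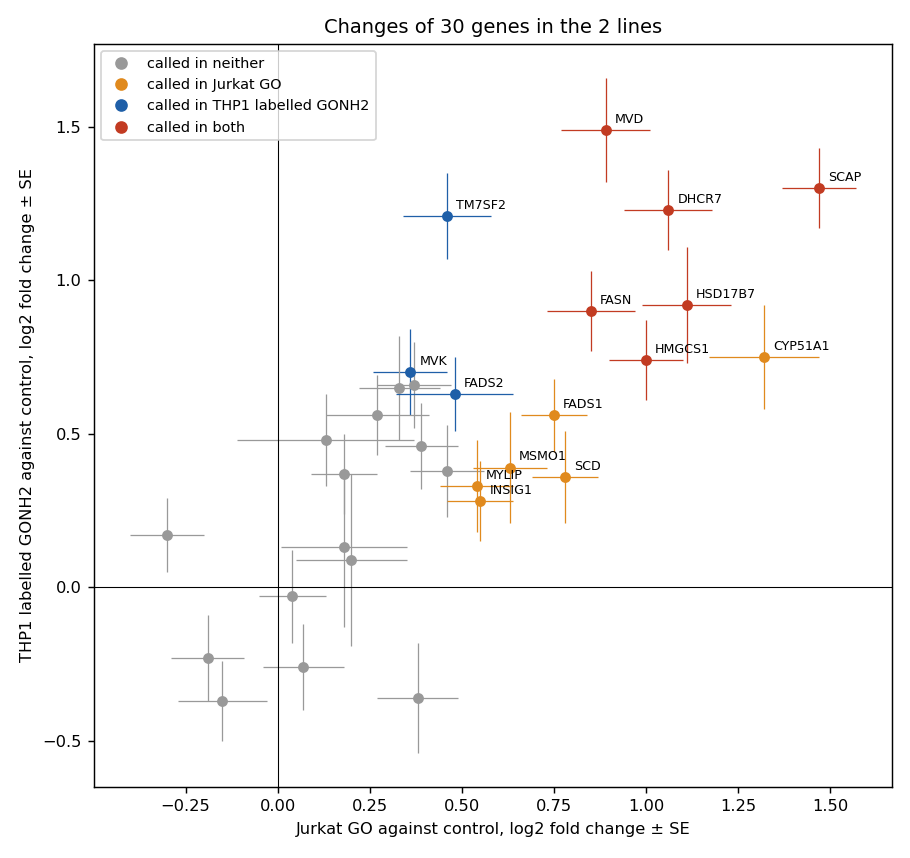
Each point is 1 of 30 genes, placed by its log2 fold change after GO in Jurkat cells (horizontal) and on the THP1 arrays labelled GONH2 (vertical), with bars of 1 standard error and colours for the comparison in which it was called. The 6 red points lie in the upper right, MVD at 0.89 and 1.49 and SCAP at 1.47 and 1.30, and TM7SF2, blue, lies to the left, at 0.46 and 1.21.

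By the labels as given, the signed change after GO was lower in THP1 than in Jurkat cells for 11 of 30 genes and higher for none. Of all probes 24.5% were called and 12.2% called lower. A lower signed change is not always a smaller one. LSS changed by −0.76 in THP1 and 0.37 in Jurkat cells, and FASN by −0.54 and 0.85. With GONH2, the signed change was higher in THP1 cells for 7 genes and lower for none, beside 18.6% of all probes called (9.52% higher and 9.06% lower). An interaction term over 12 arrays gave −1.44 ± 0.13, adjusted p = 4.69e-06 for the response of SCAP to GO and 1.41 ± 0.14, adjusted p = 5.24e-05 for its response to GONH2. With the labels of the treated THP1 arrays exchanged, limma called 0 of 30 genes for GO, beside 0.571% of all probes. There 3 upward and 3 downward differences had an unadjusted p under 0.05. For GONH2 it then called 3 of 30, beside 5.51% of all probes.

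For 7 of the 30 genes more than 1 probe was tested, and the probes did not always move together. The second probe of DHCR7 gave 0.76 ± 0.11 after GO in Jurkat cells and 1.18 ± 0.14 on the THP1 arrays labelled GONH2, both called. For INSIG1 the second probe gave −0.29 ± 0.09 after GO in Jurkat cells, opposite in sign to the brighter probe, and was called lower on the THP1 arrays labelled GO (−0.86 ± 0.13, adjusted p = 0.00588). A dimmer MSMO1 probe gave −0.09 ± 0.16 after GO in Jurkat cells and was called higher on the THP1 arrays labelled GO (0.99 ± 0.16, adjusted p = 0.00725). A dimmer LSS probe was called higher on the THP1 arrays labelled GONH2 (0.80 ± 0.14), and the second SQLE probe gave −0.12 ± 0.12 after GO in Jurkat cells. Of SREBF1, a dimmer probe gave 0.38 ± 0.21 for GONH2 against GO in Jurkat cells, opposite in sign to the brightest, and another −0.38 ± 0.17, neither called. Averaging probes ended the calls of MSMO1 and INSIG1 after GO in Jurkat cells, of LSS on the THP1 arrays labelled GO, and of SREBF1 for GONH2 against GO in Jurkat cells (−0.21) and for the difference between lines in the response to GO (−0.37).

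A wider list of 33 genes around the path held 28 with a tested probe, covering acetyl-CoA supply, chain building, electron supply to sterol enzymes, SREBP handling, sterol transport and LXR. After GO in Jurkat cells 8 rose and 1 fell, beside 12.8% of all probes called higher and 12.3% lower, and the median was 0.37, against 0.06 over all probes. TECR, the reductase that ends each round of fatty acid elongation, rose by 1.39 ± 0.10, POR, which feeds electrons to CYP51A1 and SQLE, by 1.10 ± 0.13, ACLY, which makes cytosolic acetyl-CoA from citrate, by 1.02 ± 0.11, and CYB5R3, which reduces cytochrome b5, by 0.97 ± 0.10. TECR read 12.02, 11.97 and 12.00 in the control arrays, 13.53, 13.37 and 13.26 after GO and 12.17, 11.85 and 11.97 after GONH2 in Jurkat cells. NPC2, which hands on cholesterol inside lysosomes, was the gene that fell, with a log2 fold change of −0.86 ± 0.12, adjusted p = 0.000766, and was named after its value was seen.

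After GONH2 in Jurkat cells limma called 0 of these 28, beside 0.812% of all probes, with 1 upward and 2 downward at p under 0.05 before adjustment, and the random variance test was not run on this list. On the THP1 arrays labelled GONH2, 6 of 28 rose and none fell, beside 9.89% of all probes called higher and 9.98% lower. TECR (1.27 ± 0.13), POR (1.11 ± 0.13), ACSS2 (1.09 ± 0.12), which makes acetyl-CoA from acetate, and ACLY (0.92 ± 0.12) led them. TECR read 12.35, 12.12 and 12.28 in the control arrays, 11.88, 11.97 and 11.96 on those labelled GO and 13.44, 13.65 and 13.45 on those labelled GONH2, so the arrays labelled GONH2 were the highest of the line and those labelled GO the lowest. With the label GO, 3 fell, the lysosomal sterol carrier STARD3 (−0.60 ± 0.11), the LXR partner RXRA (−0.56 ± 0.11) and CYB5B (−0.54 ± 0.10), a membrane cytochrome b5, and none rose, beside 3.89% of all probes called lower and 4.04% higher.

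Untreated cells of the lines were compared last. Untreated Jurkat arrays were higher than untreated THP1 arrays for 2 of 30 genes, INSIG1 (0.80 ± 0.09, adjusted p = 0.00103) and FADS1 (0.60 ± 0.09, adjusted p = 0.00337), and lower for none, where 11.1% of all probes were called (5.86% higher and 5.28% lower). The lines did not overlap for 15 of 30 genes, beside 44.3% of all probes. Median scaling over all probes left 0 calls, beside 8.4% of all probes. Leaving out any Jurkat control or THP1 control replicate 2 or 3 left 1, INSIG1, beside 7.35% to 8.26% of all probes. INSIG1 read 11.91, 11.87 and 11.98 in Jurkat controls and 11.19, 11.13 and 11.04 in THP1 controls, without overlap. The call of FADS1 was kept in 1 of 6 fits that left out 1 array, the one without THP1 control replicate 1, which gave 3 calls in all. None of 17 sterol enzymes was called by limma, while before adjustment 3 passed p under 0.05 upward and 1 downward. In the wider list ELOVL6, an elongase of palmitate, was detected on all Jurkat controls (9.81, 9.98 and 9.93) and on none of the THP1 controls (4.68, 5.32 and 5.08), at least 23-fold higher with the dimmest detected signal as floor (adjusted p = 3.8e-06).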

How the data were processed

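Bead-summarised probe intensities and detection p-values were deposited by the authors without normalisation, exported from GenomeStudio for 18 human HT-12 v4 arrays. A second deposited table of intensities, normalised by the authors with a method not named, served as an alternative. Signals were background-corrected against the negative controls, quantile-normalised and log2-transformed with neqc (offset 16) in limma 3.58.1 (R 4.3.3). The 19455 of 47217 probes whose detection p fell below 0.01 on 3 or more arrays entered limma's moderated test, 2 groups of 3 arrays at a time, or 12 arrays for the difference between lines. The number of arrays limits the precision. Probes were named through the platform annotation, which gave 30106 probes 1 gene symbol, 17103 no symbol and 8 more than 1, and 30067 found their gene identifier in RefSeq. Values per array are given for listed genes called against control, and up to 4 called genes of the wider list are named per comparison. The genes and lists were chosen with earlier results of these data known. The lists of group means that accompany the study also hold its own fold changes, which were not used. The script was tested on simulated data.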

Additional observations from a re-analysis of the deposited data

Results flagged for a closer look

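The response to the treatment differed between the cell lines, by an interaction term in limma over 12 arrays, for some listed genes. These were 11 of 30 tested genes with the label GO, beside 24.5% of all probes called. With the label GONH2 they were 7 of 30, beside 18.6% of all probes called. Each value is the THP1 change from control minus the Jurkat change, on the log2 scale with its standard error. With the label GO, the sterol path gave −0.97 ± 0.13 for HMGCS1, −1.24 ± 0.20 for MVD, −1.13 ± 0.13 for LSS, −1.16 ± 0.24 for CYP51A1, −1.23 ± 0.16 for HSD17B7 and −1.28 ± 0.17 for DHCR7. The sensor gave −0.68 ± 0.13 for SREBF1 and −1.44 ± 0.13 for SCAP, and fatty acid synthesis −0.93 ± 0.12 for FADS1, −1.03 ± 0.13 for SCD and −1.39 ± 0.15 for FASN. Averaging the probes of SREBF1 ended its call (−0.37). Of the 11 calls 10 were kept whichever array was left out, and that of CYP51A1 in 7 of 12 fits. The adjusted p-values of these 11 ran from 4.69e-06 for SCAP to 0.00228 for CYP51A1.

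With the label GONH2, the sterol path gave 1.63 ± 0.20 for MVD, 1.31 ± 0.17 for TM7SF2, 1.22 ± 0.23 for HSD17B7 and 1.35 ± 0.16 for DHCR7. SCAP gave 1.41 ± 0.14, and the fatty acid genes 0.79 ± 0.17 for FADS2 and 1.11 ± 0.16 for FASN. Of these 7 calls 6 were kept whichever array was left out, and that of FADS2 in 4 of 12 fits. The adjusted p-values of these 7 ran from 5.24e-05 for SCAP to 0.00315 for FADS2. MVD, HSD17B7, DHCR7, SCAP and FASN differed with both labels and in opposite directions. The difference between the lines and the exchange of labels of the treated THP1 arrays cannot be told apart here.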

How the results depend on the processing

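The number of listed genes called depended on the scaling, the background correction, the arrays fitted and the THP1 labels. Percentages in brackets are the shares of all probes tested in that setting that were called. Median scaling over all probes gave 3 genes for Jurkat GO against control (19.1%), 4 for THP1 labelled GONH2 against control (19.8%) and 3 for Jurkat GONH2 against GO (16.9%). It gave 5 and 2 for the differences between lines in the response to GO and to GONH2 (12.9% and 11.2%), and 0 between the untreated lines (8.4%). Of the genes called, INSIG1 changed sign, to −0.01 after GO in Jurkat cells, and genes not called also did. Median scaling over tested probes, chosen after seeing the data, gave 6 genes for Jurkat GO against control (23.7%) and 6 for Jurkat GONH2 against GO (22.7%). The authors' normalised values and the signals without background correction gave the same counts as each other. With the authors' values these were 1 for Jurkat GONH2 against control (CYP51A1, 4.77%), 7 for THP1 labelled GO (15.2%) and 15 for THP1 labelled GONH2 (25.5%). They were 16 for Jurkat GONH2 against GO (33.2%), 11 for the difference in the response to GONH2 (23.4%) and 8 between untreated lines (17.8%). A single fit of all 18 arrays gave 16 genes for THP1 labelled GONH2 against control (30.4%) and 5 between untreated lines (15.1%). There the probes detected on all arrays also gave 5 (16.9%). Exchanged THP1 labels gave 9 genes with the label GO (19.9%), 4 with the label GONH2 (7.93%) and 14 between the materials (1 higher and 13 lower, 28%). They gave 0 and 3 for the differences between lines (0.571% and 5.51%). With 1 array left out, the counts ranged from 9 to 10 for Jurkat GO (17.7% to 21%) and from 0 to 0 for Jurkat GONH2 (0.0103% to 0.0206%). They ranged from 2 to 3 for THP1 labelled GO (4.18% to 5.52%) and from 5 to 6 for THP1 labelled GONH2 (13% to 15.8%). Between materials they ranged from 8 to 9 in Jurkat cells (16.9% to 20.2%) and from 10 to 14 in THP1 cells (19.4% to 23.2%). The differences between lines gave from 10 to 11 for GO (20.8% to 23.4%) and from 6 to 8 for GONH2 (14.5% to 17.4%). The untreated lines gave from 1 to 3 (7.35% to 9.7%). The cause of these shifts was not tested. The random variance test changed no count.

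Samples with the same replicate number deviated from their group means together with correlations of −0.07 to 0.16, and those with different numbers with −0.15 to 0.14. The same-number values were all the higher ones for Jurkat GONH2 against control (0.03 to 0.07, others −0.06 to 0.01). This also held for THP1 labelled GO against control (0.04 to 0.14, others −0.10 to 0.00) and the untreated lines (0.03 to 0.10, others −0.09 to 0.00). In the other comparisons the ranges overlapped. With the replicate number as a block, the counts were 10 for Jurkat GO (20.6% of all probes called), 0 for Jurkat GONH2 (0.0103%) and 3 for THP1 labelled GO (5.3%). They were 7 for THP1 labelled GONH2 (17.5%) and 9 and 12 between materials (19.6% and 24.4%). The differences between lines gave 11 and 7 (24.1% and 18.2%), and the untreated lines 1 (8.25%). Dim signal limits SREBF2, STARD4 and ABCG1. Slide was not given in the sources used here.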
